A study of Mus musculus with 117 samples.

Results

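The genes described here are 40 genes of mitosis and of the G2/M transition, the step at which a cell that has copied its DNA enters division. They were chosen by symbol, and each was found by its Entrez identifier in the RNA count table, so that 40 of the table's 26301 genes form the set and all 40 could be tested in every comparison. They comprise 9 genes of mitotic entry, 4 of the spindle checkpoint, 3 of the chromosomal passenger complex, 6 of the centromere and kinetochore, 7 of the spindle, 6 of the midzone and cytokinesis, 3 of the anaphase switch and 2 of chromosome structure.

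The study asked how the SUMO pathway keeps cell identity, and it depleted Ubc9, the E2 enzyme that attaches the small protein SUMO to its targets. RNA was sequenced in 28 libraries of 10 groups. Mouse embryonic fibroblasts (MEF) taken at E13.5 and grown for 1 passage carried a hairpin against Ubc9 (MEF shUbc9, 2 libraries) or a control hairpin (MEF shCtrl, 3 libraries). The same kind of fibroblasts expressed OKSM (Oct4, Klf4, Sox2 and Myc, which together reprogram cells) for 4 days in D4 shUbc9 and D4 shCtrl, or for 7 days in D7 shUbc9 and D7 shCtrl, with 3 libraries each. Induced pluripotent cells made from fibroblasts were iPS shUbc9 (3 libraries) and iPS shCtrl (2 libraries). Embryonic stem cells of passages 15 to 20 received a small interfering RNA against Ubc9 (ES siUbc9, 3 libraries) or a control (ES siCtrl, 3 libraries). The labels name no promoter for OKSM and no cell line, and they do not say whether replicates were separate cultures, so a p-value here reflects no more than the spread among libraries, which may be technical. All libraries are of bulk cultures, in which more cells that express a gene and more RNA per cell cannot be told apart.

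Most mitotic genes are transcribed in a wave late in the cell cycle, through S phase and G2, and their RNA is low in cells that rest or have just divided. Cyclin B with its kinase Cdk1 starts mitosis, the kinetochore joins chromosomes to spindle fibres, the spindle checkpoint waits for the last one to attach, and the anaphase-promoting complex (APC/C) with Cdc20 then releases them. Repression of these genes in resting cells runs through the DREAM complex and the cell cycle homology region in their promoters, and activation through Foxm1 and Mybl2. Fibroblasts pass through G1 slowly and may stop there, whereas pluripotent stem cells divide fast with a short G1, so the level of these RNAs is commonly read as a sign of how many cells of a culture are dividing.

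Promoter sequences show what many of these genes share. Of the 40 genes, 32 had a window in the collection of RefSeq promoters used here (build GRCm38.p6), with 34 windows in all. Each window has 300 bases that run from 250 before to 50 after the start of transcription. Aurkb, Ccna2, Cdc25c, Dlgap5, Foxm1, Incenp, Kif20a and Tpx2 had none in that collection. The letters CCAAT, the core of the site bound by the factor NF-Y, stood on either strand in 26 of the 34 windows (76.5%). Of all 32851 windows in the collection, 37.4% held them. The letters TTTGAA, a form of the cell cycle homology region, stood on either strand in 25 windows (73.5%), against 17.9% of all windows, and both motifs in 22 windows (64.7%), against 6.95%. A match in one motif was counted whether or not it overlapped one of the other. Ect2 and Prc1 each had overlapping windows, all holding both motifs, so these genes entered the counts more than once. Neither motif was found in the windows of Pttg1, Mad2l1, Birc5, Nuf2 and Nusap1. A match is a description of the letters and not a binding site. The windows below are read 5′ to 3′ on the gene's strand with every match of either motif, or of its reverse complement (ATTGG and TTCAAA), in capitals. Ccnb1, Ccnb2, Cdk1 and Cdc20 were chosen because cyclin B with its kinase and Cdc20 start and end mitosis. Pttg1 was chosen because it was not among the genes called higher in D7 shUbc9, and Mad2l1 because it rose most of the set in ES siUbc9. At D7 Mad2l1 rose with most of the set, as did Birc5, Nuf2 and Nusap1, which also lack both motifs. A link between motifs and response was not tested. Ccnb1 lies on the minus strand at chr13:100786437-100786736, Ccnb2 on the minus strand at chr9:70421505-70421804, Cdk1 on the minus strand at chr10:69352863-69353162, Cdc20 on the minus strand at chr4:118437294-118437593, Pttg1 on the minus strand at chr11:43425932-43426231 and Mad2l1 on the plus strand at chr6:66534971-66535270.
Ccnb1: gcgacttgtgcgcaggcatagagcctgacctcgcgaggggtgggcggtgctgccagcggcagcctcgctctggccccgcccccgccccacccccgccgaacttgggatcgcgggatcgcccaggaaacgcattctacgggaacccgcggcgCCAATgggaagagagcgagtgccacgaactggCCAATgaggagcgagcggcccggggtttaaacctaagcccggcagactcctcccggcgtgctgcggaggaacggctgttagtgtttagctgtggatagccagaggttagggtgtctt
Ccnb2: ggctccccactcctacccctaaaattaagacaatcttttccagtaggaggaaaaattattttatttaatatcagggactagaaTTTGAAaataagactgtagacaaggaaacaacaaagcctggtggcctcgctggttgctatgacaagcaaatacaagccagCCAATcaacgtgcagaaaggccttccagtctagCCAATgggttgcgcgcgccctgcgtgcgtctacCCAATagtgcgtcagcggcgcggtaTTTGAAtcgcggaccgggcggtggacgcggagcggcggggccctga
Cdk1: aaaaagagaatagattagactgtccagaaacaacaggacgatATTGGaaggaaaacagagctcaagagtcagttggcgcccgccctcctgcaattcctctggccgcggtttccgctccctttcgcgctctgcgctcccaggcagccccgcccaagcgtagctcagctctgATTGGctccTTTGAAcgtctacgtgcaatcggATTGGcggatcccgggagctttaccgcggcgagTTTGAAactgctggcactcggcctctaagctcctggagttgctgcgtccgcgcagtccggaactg
Cdc20: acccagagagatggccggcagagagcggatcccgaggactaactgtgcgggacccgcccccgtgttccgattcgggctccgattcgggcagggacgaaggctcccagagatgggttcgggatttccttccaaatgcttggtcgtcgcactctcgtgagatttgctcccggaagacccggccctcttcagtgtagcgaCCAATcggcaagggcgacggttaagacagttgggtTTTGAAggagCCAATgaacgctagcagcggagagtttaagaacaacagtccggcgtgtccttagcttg
Pttg1: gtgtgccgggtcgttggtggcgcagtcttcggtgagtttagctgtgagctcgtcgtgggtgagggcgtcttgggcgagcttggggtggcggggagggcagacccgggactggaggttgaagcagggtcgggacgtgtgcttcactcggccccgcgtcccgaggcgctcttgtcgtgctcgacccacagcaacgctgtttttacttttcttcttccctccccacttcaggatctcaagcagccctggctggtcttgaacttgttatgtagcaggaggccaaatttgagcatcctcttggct
Mad2l1: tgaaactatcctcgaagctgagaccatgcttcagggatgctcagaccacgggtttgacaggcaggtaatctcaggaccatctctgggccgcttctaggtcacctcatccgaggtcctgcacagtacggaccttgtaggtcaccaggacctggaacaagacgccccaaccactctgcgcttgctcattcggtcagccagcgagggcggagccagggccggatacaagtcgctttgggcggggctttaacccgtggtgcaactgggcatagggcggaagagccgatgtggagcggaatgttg
The Ccnb1 window holds 2 CCAAT matches and 0 of TTTGAA, the Ccnb2 and Cdk1 windows each hold 3 and 2, the Cdc20 window 2 and 1, and the windows of Pttg1 and Mad2l1 hold 0 of both.

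The libraries held 11.4 M to 58.8 M counts in genes, and the 40 genes took 0.150% to 1.01% of them. Levels are given in CPM, the usual count scaled by library size, with TMM factors over all 28 libraries, which compare 1 gene between libraries and not 1 gene with another, since gene length is not corrected for. Replicate 2 of iPS shUbc9, the shallowest library at 11.4 M counts, stood apart. There 22 of the 40 genes had their lowest and 12 their highest value of the 5 iPS libraries. Cenpe, for example, was at 10.4 CPM in it and at 147 and 170 CPM in the other iPS shUbc9 libraries.

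The level of the set differed with the state of the cells. The summed level of the 40 genes was 1698 ± 46.2 CPM in MEF shUbc9 (SD, n = 2) and 2005 ± 133 CPM in MEF shCtrl (n = 3). It was 3426 ± 89.8 CPM in D4 shUbc9 and 3315 ± 94.1 CPM in D4 shCtrl (n = 3 each). It was 2919 ± 197 CPM in D7 shUbc9 and 1816 ± 42.1 CPM in D7 shCtrl (n = 3 each). Of these 3 states the depleted and control libraries lay closest together at D4, where their ranges overlapped, and farthest apart at D7, where no depleted library came near a control one. In iPS cells the sum was 7493 ± 1734 CPM in shUbc9 (n = 3) and 7995 ± 961 CPM in shCtrl (n = 2), and without replicate 2 the other shUbc9 libraries stood at 8018 and 8904 CPM. In ES cells it was 8997 ± 109 CPM in siUbc9 and 9607 ± 422 CPM in siCtrl (n = 3 each).

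Gene by gene, the lowest group mean was in MEF shUbc9 for 19 genes, in D7 shCtrl for 20 and in ES siUbc9 for 1, Cdc25b, a phosphatase that activates Cdk1. The pluripotent groups all lay above all groups of MEF, D4 and D7 for 34 genes. The exceptions were Cdc25b, Foxm1, Nuf2, Anln, Pttg1 and Mki67. D7 shCtrl was below MEF shCtrl for 29 genes, while D7 shUbc9 was above MEF shCtrl for 39 and below D4 shCtrl for 32. These are orders of group means, given as a description.

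**Figure D1:**
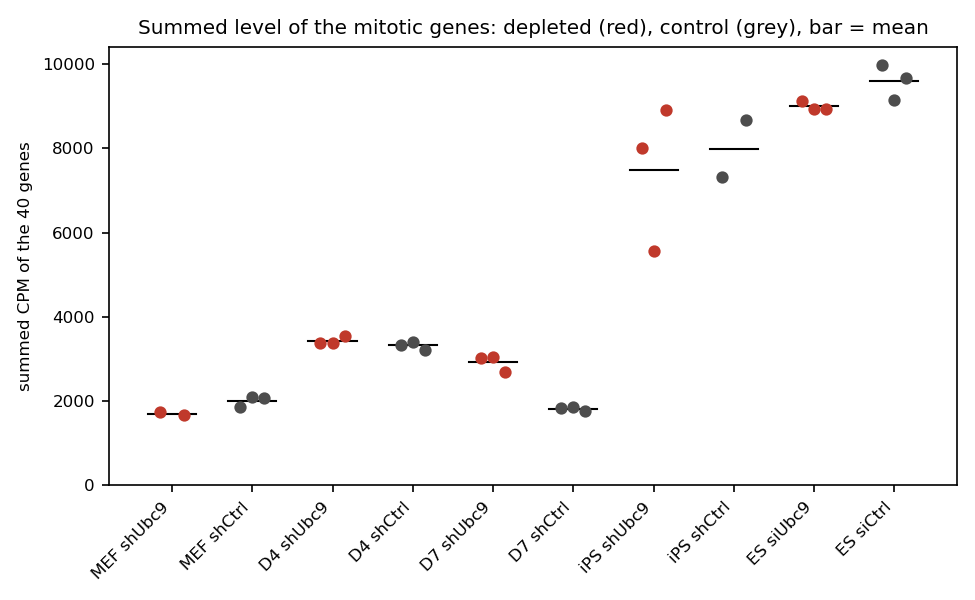
Summed level of the 40 genes in CPM (vertical axis) in each of the 28 libraries (points, red for Ubc9-depleted and grey for control) by group, with the group mean as a bar. The 3 D7 shUbc9 libraries lie between 2691 and 3037 CPM, above the 3 D7 shCtrl libraries between 1767 and 1842 CPM.

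**Figure D2:**
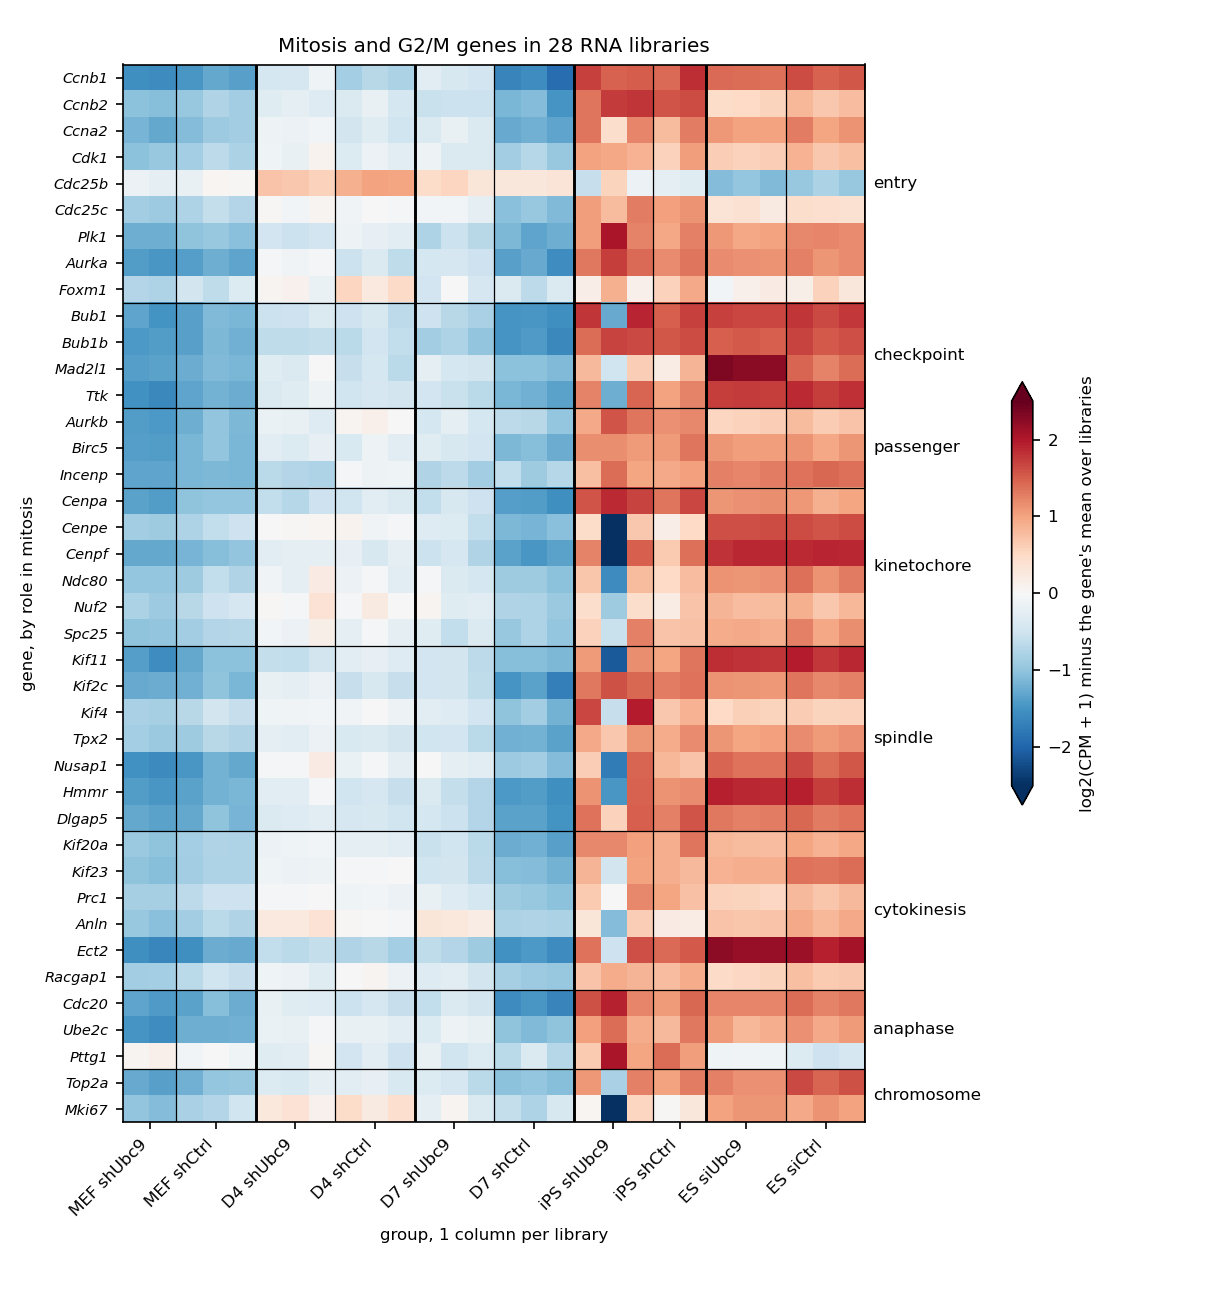
Heat map with 1 row per gene, grouped by role, and 1 column per library, coloured by log2(CPM + 1) minus the gene's mean over the 28 libraries (red higher, blue lower, and values past the ends of the bar drawn in its end colours). The D7 shUbc9 mean is above the MEF shCtrl mean for 39 genes while the D7 shCtrl mean is below it for 29, and the middle column of iPS shUbc9, replicate 2, departs from its neighbours.

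Depletion at D7 came with higher RNA of nearly all mitotic genes. Of the 40 genes, 36 rose in D7 shUbc9 against D7 shCtrl and 0 fell (edgeR, adjusted p under 0.05), where 27.3% of all 17207 genes tested were called higher and 26.3% lower. The median log2 fold change of the 40 genes was 0.70, against 0.01 over all genes. All depleted libraries lay above all control libraries for 36 genes and below them for 0, against 30.8% and 29.9% of all genes. With library sizes alone as the scaling, the median of all genes shifted to 0.21 and the share of calls that were higher went to 71.5%, against 50.9% with the scaling used here. The 40 genes then had a median of 0.90, with 39 called higher.

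Among the genes of mitotic entry, 7 of 9 rose. Ccnb1, which encodes cyclin B1, was at 88.0, 81.0 and 77.0 CPM in D7 shUbc9 libraries, against 33.77, 36.05 and 28.04 CPM in D7 shCtrl libraries. Each depleted library had more than any control library, and the change was the largest of the 40 genes (log2 fold change 1.33 ± 0.10 SE, 2.51-fold, adjusted p = 1.41e-05). Cdc25c, a phosphatase that activates Cdk1, was at 15.33, 15.37 and 13.53 CPM in D7 shUbc9, against 7.29, 7.86 and 6.99 CPM in D7 shCtrl, and the groups did not overlap (1.00 ± 0.10, adjusted p = 7.37e-05). The S phase and mitotic cyclin gene Ccna2 rose by 0.98, Aurka, a kinase of the spindle poles, by 0.95, Ccnb2, the second B-type cyclin, by 0.70, and the mitotic kinases Cdk1 and Plk1 each by 0.57. The 2 genes of this role that did not pass were Cdc25b, with a log2 fold change of 0.14 and an adjusted p of 0.16, and Foxm1, a transcription factor of mitotic genes. Foxm1 was at 27.2, 38.1 and 28.6 CPM in D7 shUbc9, against 29.56, 24.02 and 29.80 CPM in D7 shCtrl, so the groups overlapped (0.18 ± 0.14, adjusted p = 0.32).

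All 4 checkpoint genes rose at D7, by 0.84 for the kinase Bub1, 0.69 for Mad2l1, which encodes the checkpoint protein Mad2, 0.69 for the kinase Ttk and 0.64 for Bub1b, which encodes BubR1. Of the passenger complex, which corrects faulty attachments, Birc5 (survivin) rose by 0.77 and the kinase gene Aurkb by 0.40. Their partner Incenp, the scaffold of the complex, was at 46.0, 49.3 and 42.5 CPM in D7 shUbc9, against 50.6, 42.1 and 47.3 CPM in D7 shCtrl. The libraries of its groups interleaved, and no change was called (-0.02 ± 0.09, adjusted p = 0.87, and 0.19 with library sizes alone as the scaling).

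All 6 centromere and kinetochore genes rose. Cenpa, the histone H3 variant that marks the centromere, was at 30.3, 35.5 and 32.6 CPM in D7 shUbc9, against 17.5, 17.3 and 15.6 CPM in D7 shCtrl. The depleted libraries were all far above the control libraries (0.96 ± 0.09, adjusted p = 5.55e-05). Cenpf rose by 0.83, the motor gene Cenpe by 0.70, and the microtubule-binding Ndc80 complex by 0.70 for Ndc80, 0.67 for Nuf2 and 0.50 for Spc25.

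Of the spindle genes 7 of 7 rose. Kif2c, a kinesin that takes microtubules apart, was at 52.3, 53.3 and 46.6 CPM in D7 shUbc9, against 25.6, 28.2 and 21.7 CPM in D7 shCtrl, with no overlap (1.01 ± 0.10, adjusted p = 7.95e-05). The microtubule-binding genes Hmmr, Dlgap5 and Nusap1 rose by 0.92, 0.85 and 0.81, Tpx2, the activator of Aurora A, by 0.70, the chromokinesin gene Kif4 by 0.68 and Kif11, whose motor pushes the poles apart, by 0.56.

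All 6 genes of the midzone and cytokinesis rose as well. Anln, which encodes the cleavage furrow protein anillin, was at 218, 211 and 200 CPM in D7 shUbc9, against 102, 105 and 101 CPM in D7 shCtrl. Replicates lay close together and the groups far apart, and its adjusted p was the smallest of the set (1.03 ± 0.06, adjusted p = 3.68e-06). Ect2, the exchange factor that starts furrowing, rose by 0.77, the kinesin gene Kif20a by 0.70, Prc1, which bundles midzone fibres, by 0.65, and the centralspindlin genes Kif23 and Racgap1 by 0.59 and 0.55.

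At the anaphase switch, Cdc20, the activator of the APC/C, was at 94.1, 112 and 104 CPM in D7 shUbc9, against 48.2, 51.8 and 45.3 CPM in D7 shCtrl, without overlap (1.10 ± 0.09, adjusted p = 1.81e-05). Ube2c, the E2 enzyme of the APC/C, rose by 0.85. Pttg1, which encodes securin, the inhibitor of separase, was at 23.4, 18.6 and 21.0 CPM in D7 shUbc9, against 16.50, 20.66 and 16.05 CPM in D7 shCtrl. The lowest depleted library lay below the highest control library, and no change was called (0.24 ± 0.13, adjusted p = 0.14). Of the chromosome genes, Top2a, the topoisomerase that untangles chromosomes, rose by 0.55 and Mki67, the proliferation marker that coats them, by 0.43.

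**Figure D3:**
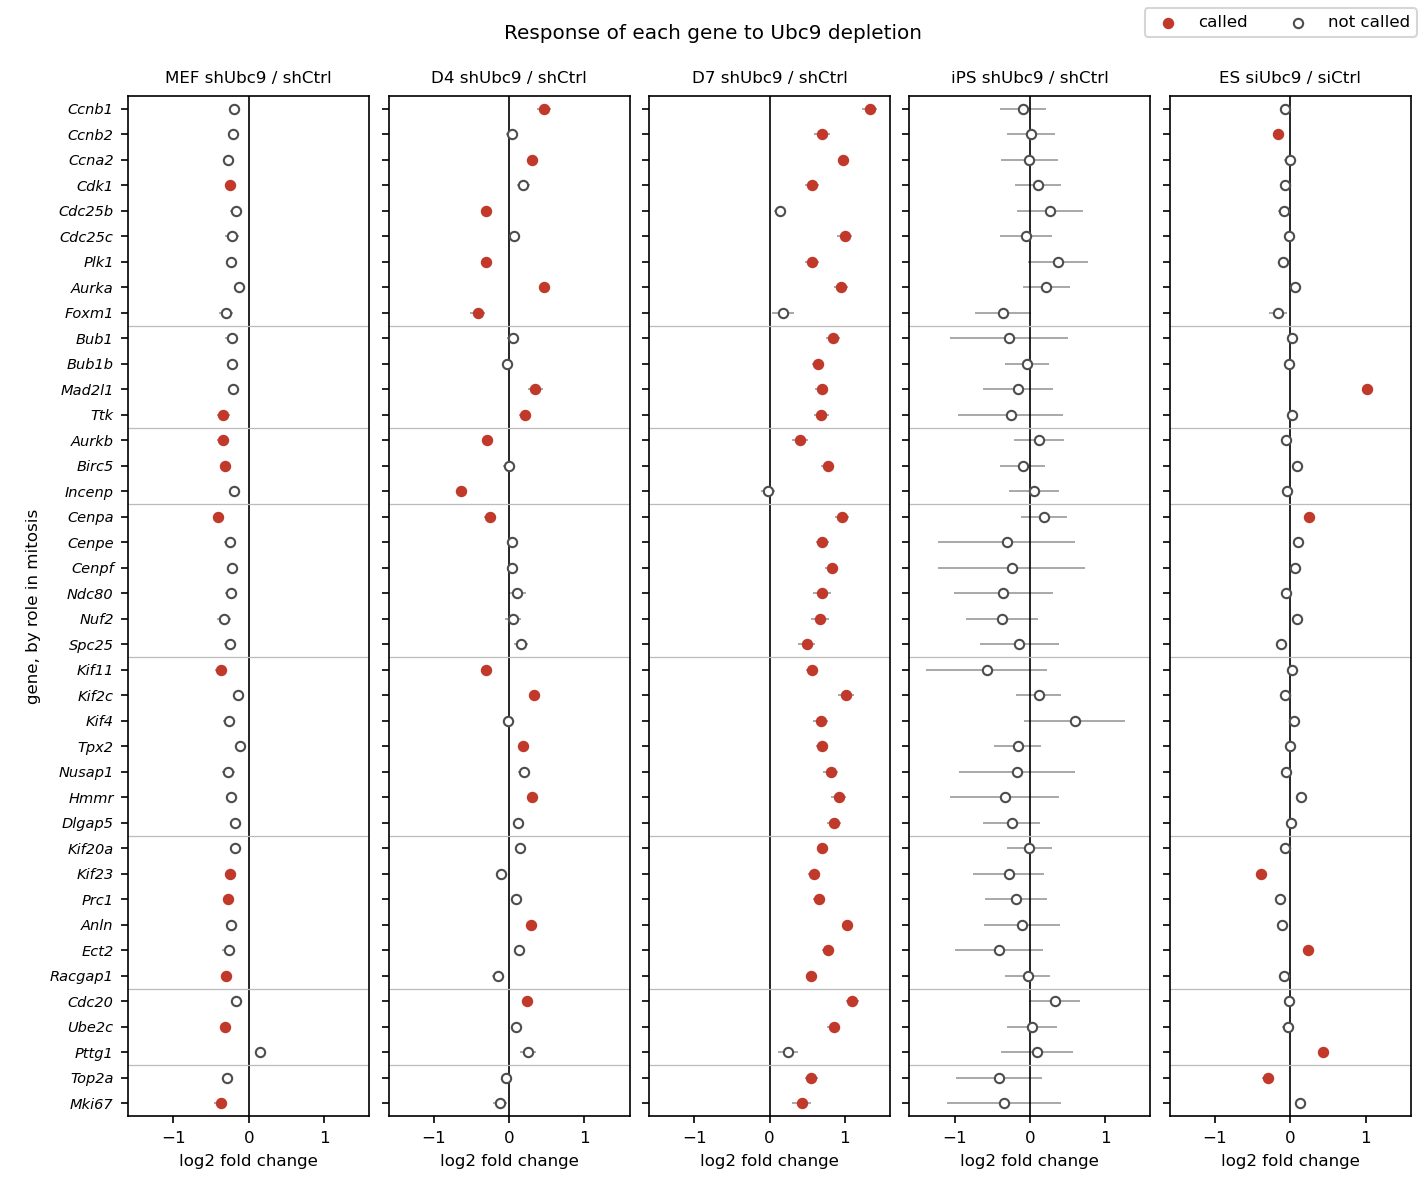
Log2 fold change of depleted over control libraries (horizontal axis, bars are SE) of each of the 40 genes (rows, grouped by role) in the 5 cell states, filled red where called at an adjusted p under 0.05 and open where not. The D7 panel has 36 filled points, all to the right of 0, the MEF panel 11, all to the left, and the iPS panel 0.

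Markers of other cell types differed at D7 as well. The summed level of 13 fibroblast markers was 20054 to 24426 CPM in D7 shUbc9, against 43671 to 60325 CPM in D7 shCtrl, with 11 of 13 called lower, among them Postn (-1.47) and Pdgfra (-1.26), and 1 higher, Twist2 (0.72). That of 12 pluripotent markers was 92.5 to 120 CPM, against 17.6 to 37.7 CPM, with 11 of 12 higher, among them Tdgf1 (3.16) and Zfp42 (2.36). The sum of 7 epithelial markers was 817 to 891 CPM, against 211 to 288 CPM, with 7 of 7 higher, among them Dsp (1.81) and Cdh1 (1.42). In ES siCtrl libraries the same pluripotent markers summed to 3582 to 3844 CPM. No marker of these 3 lists was at 0 in every library of a D7 group. Macrophage markers overlapped, at 182 to 225 CPM in D7 shUbc9 and 165 to 293 CPM in D7 shCtrl (1 of 15 called higher, Laptm5 at 0.39). Of 7 endothelial markers, 6 were tested, 3 rose, among them Pecam1 (2.80) and Tie1 (1.43), and 2 fell, Kdr (-0.79) and Tek (-0.49), and the sum was 134 to 155 CPM, against 179 to 200 CPM. The part of these shifts in the mitotic genes was not tested.

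The D7 difference can be set beside the course from D4 to D7 within each hairpin. Under the control hairpin the set was lower at D7 than at D4. In D7 shCtrl against D4 shCtrl, 39 fell and 0 rose (edgeR; 7.65% of 16792 genes were called lower and 10.6% higher), the median log2 fold change was -0.89 against -0.00 over all genes, and the libraries did not overlap for 39 genes, all lower at D7 (17.8% of all genes). Cenpe fell by 1.11, Kif23 and Cenpf by 1.10, and Cenpa by 1.09, and only in Pttg1 was no change called (-0.15, adjusted p = 0.43). Fewer calls were made when the spread was estimated over all 28 libraries, where 25 of the genes were lower. Of the calls over all genes 58.0% were higher, and 39.4% with library sizes alone.

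Under Ubc9 depletion the step was small. In D7 shUbc9 against D4 shUbc9, 14 fell and 0 rose (10.4% of 17324 genes were lower and 14.7% were higher), with a median log2 fold change of -0.17. Kif20a fell by 0.42, Cenpe by 0.40, Aurka by 0.37, and Kif23 and Mki67 by 0.36. Positive values were seen in 4 genes, none of them called: Cenpa at 0.17, Kif11 at 0.07, Incenp at 0.02 and Anln at 0.02. The signs of Incenp and Anln depend on the scaling. In CPM scaled over all 28 libraries, mean Incenp was 45.9 in D7 shUbc9 and 47.0 in D4 shUbc9. Mean Anln was 210 and 215 CPM in these groups. The count of 14 fell to 5 without D4 shUbc9 replicate 1, 6 without D4 shUbc9 replicate 2, 9 without D4 shUbc9 replicate 3 and 4 without D7 shUbc9 replicate 3.

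**Figure D4:**
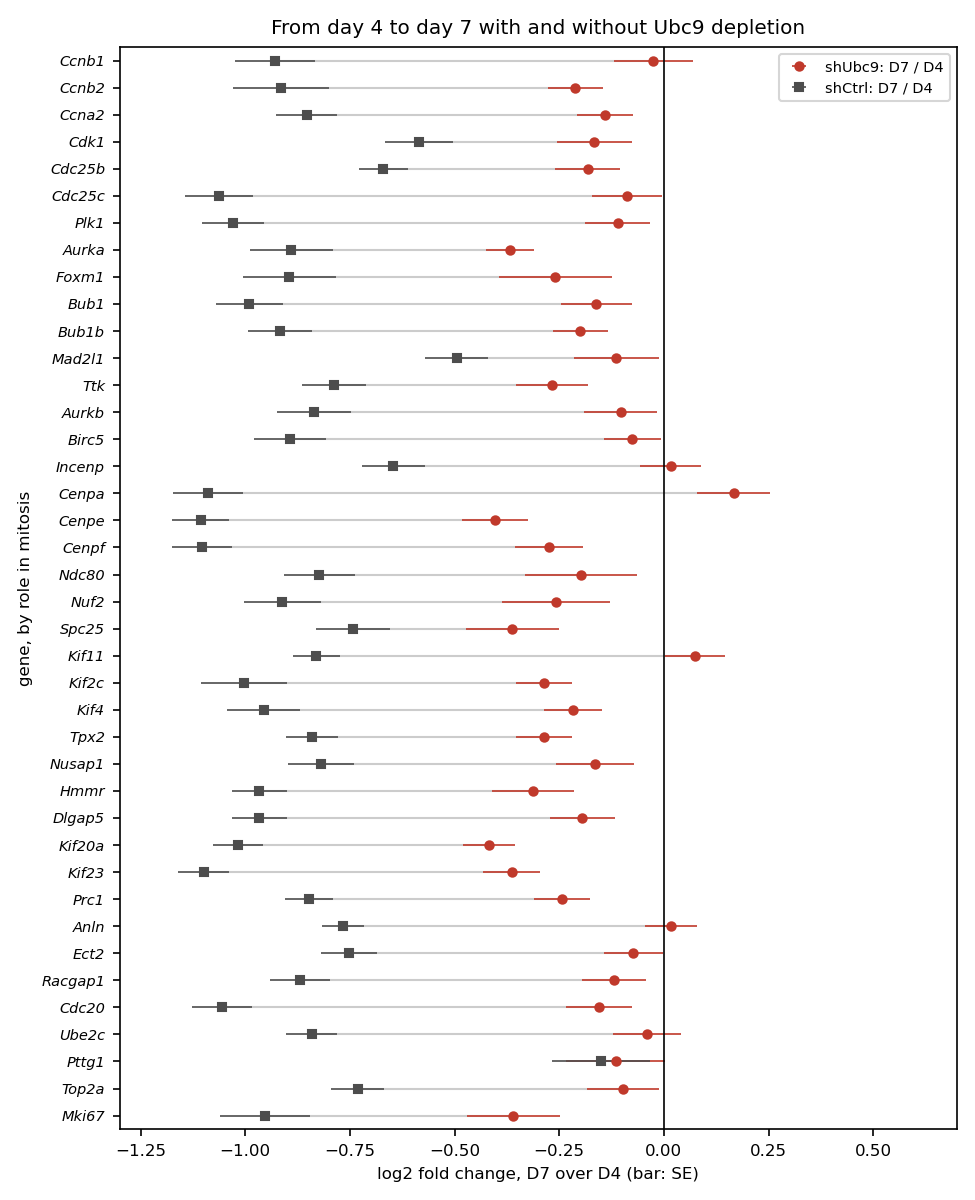
Log2 fold change of D7 over D4 (horizontal axis, bars are SE) for each of the 40 genes under the Ubc9 hairpin (red circles) and the control hairpin (grey squares). The control values lie between -1.11 and -0.15 and the depleted values between -0.42 and 0.17.

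The difference between these courses, which is the same contrast as the D7 response minus the D4 response, was tested in 1 model over the 4 groups. It was higher for 35 of the 40 genes and lower for 0 (edgeR; 6.04% of 17676 genes were higher and 6.24% were lower), with a median of 0.68 against -0.02 over all genes. Cenpa had the largest difference (1.23 ± 0.12, adjusted p = 6.72e-05), followed by Cdc25c (0.95), Plk1 (0.89) and Ccnb1 and Kif11 (both 0.88). The 5 genes not called were Foxm1 (0.61), Cdk1 (0.39), Mad2l1 and Spc25 (both 0.35) and Pttg1 (0.01, adjusted p = 0.99). With the spread taken over all 28 libraries the count was 12. Of the calls over all genes 49.2% were higher, and 72.9% with library sizes alone. The D7 response, the D7 shCtrl with D4 shCtrl comparison and this test share the D7 shCtrl libraries and are not independent of each other.

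At D4 the response was mixed. In D4 shUbc9 against D4 shCtrl, 10 of the 40 genes rose and 7 fell (edgeR), where 27.2% of 17001 genes were called higher and 26.1% lower, and the median log2 fold change was 0.07, against -0.01 over all genes. The depleted libraries lay above the control libraries for 16 genes and below for 8, against 31.6% and 30.1% of all genes. In neither direction is the called share of the 40 genes larger than that of all genes.

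Among the entry genes at D4, Aurka was at 82.9, 79.8 and 82.7 CPM in shUbc9, against 58.2, 65.5 and 53.8 CPM in shCtrl, all depleted libraries being higher (0.47 ± 0.08, adjusted p = 0.000854). Ccnb1 was at 78.9, 80.8 and 99.7 CPM, against 59.7, 66.4 and 61.7 CPM, again without overlap (0.46 ± 0.09, adjusted p = 0.00265), and Ccna2 rose by 0.31. Plk1 went the other way, at 45.2, 43.3 and 45.2 CPM in shUbc9, against 57.9, 55.2 and 52.3 CPM in shCtrl (-0.31 ± 0.06, adjusted p = 0.00272). Foxm1 fell by 0.42 and Cdc25b by 0.31.

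In the passenger complex, Incenp had the largest fall of the set at D4, with 49.1, 46.5 and 45.4 CPM in shUbc9, against 75.6, 71.8 and 72.7 CPM in shCtrl. Its groups were far apart with close replicates (-0.64 ± 0.06, adjusted p = 4.21e-05). Aurkb fell by 0.29, and Birc5 did not pass (-0.01, adjusted p = 0.94). Of the kinetochore genes only Cenpa was called, lower at 30.1, 28.2 and 32.6 CPM in shUbc9, against 33.0, 38.6 and 36.5 CPM in shCtrl, a narrow gap (-0.25 ± 0.08, adjusted p = 0.0256).

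The other calls at D4 were rises in the checkpoint genes Mad2l1 (0.35) and Ttk (0.21), the spindle genes Kif2c (0.33), Hmmr (0.31) and Tpx2 (0.19), the furrow gene Anln (0.29) and the APC/C activator Cdc20 (0.24), and a fall in the motor gene Kif11 (-0.30). Neither chromosome gene was called, the smaller p being that of Mki67 (-0.13, adjusted p = 0.27). Without D4 shCtrl replicate 1, and likewise without D4 shCtrl replicate 3, 6 genes were higher in place of 10. With library sizes alone 14 were higher and 4 lower, and with the spread over all 28 libraries 3 and 1. Fibroblast markers summed to 22109 to 24536 CPM in D4 shUbc9, against 31858 to 45284 CPM in D4 shCtrl (11 of 13 lower), macrophage markers to 254 to 276 CPM, against 163 to 169 CPM (13 of 15 higher), and epithelial markers to 245 to 259 CPM, against 142 to 149 CPM (6 of 7 tested, 3 higher and 1 lower). Endothelial markers summed to 205 to 208 CPM, against 176 to 183 CPM (6 of 7 tested, 1 higher and 1 lower), and pluripotent markers, at low levels, to 3.81 to 11.6 CPM, against 3.52 to 4.27 CPM (5 of 12 tested, 3 higher and 1 lower). The part of these markers was not tested.

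**Figure D5:**
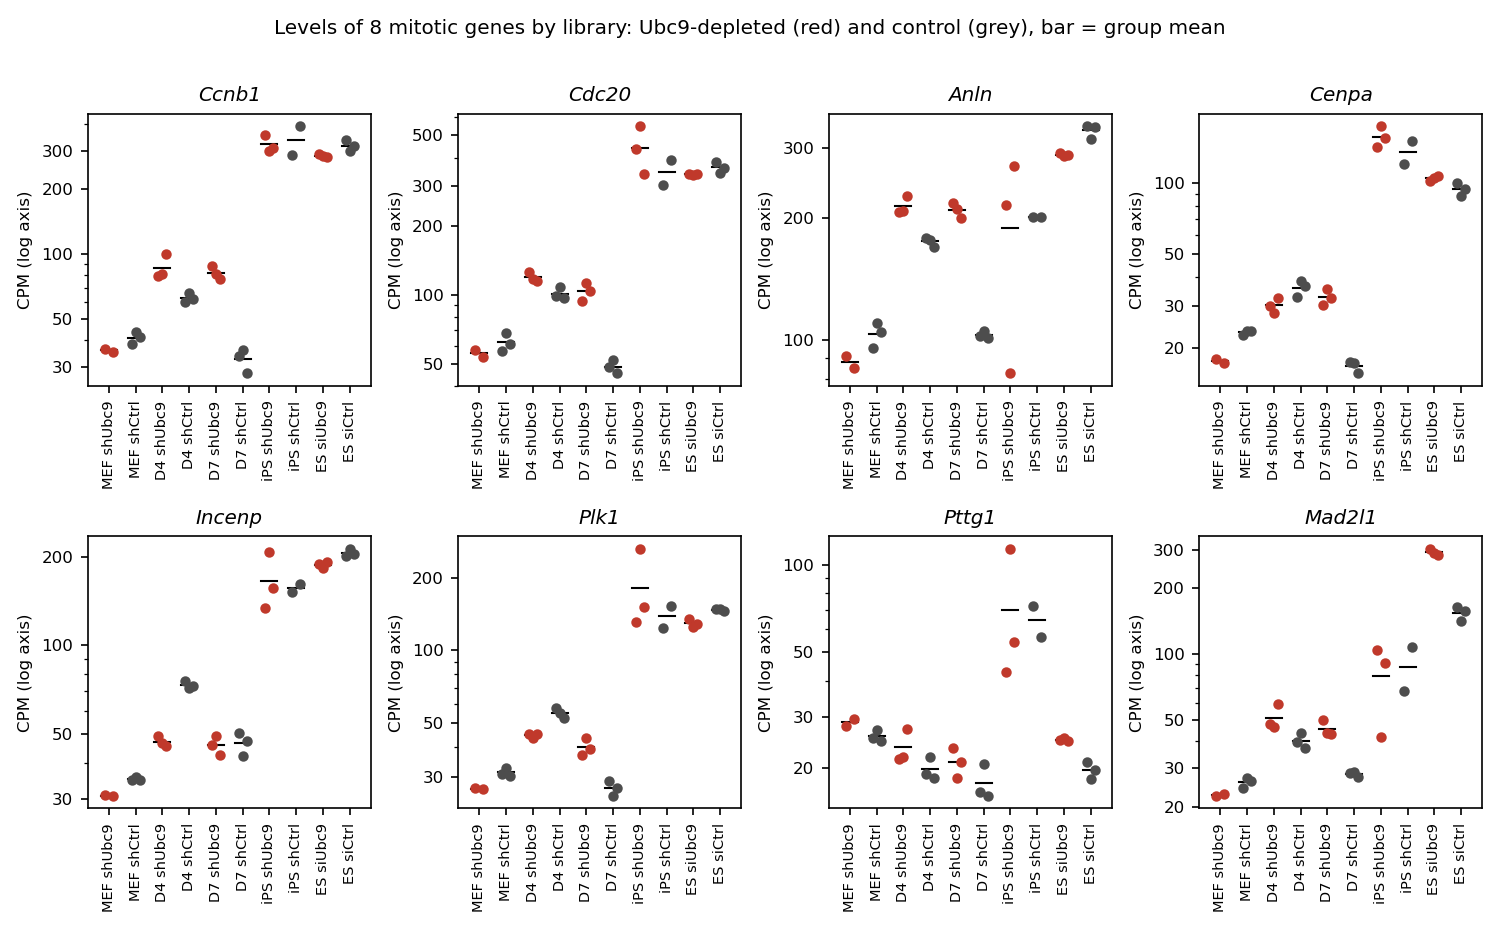
Level in CPM (vertical axis, log scale) of 8 of the genes in each library (points, red for Ubc9-depleted and grey for control) of the 10 groups, with the group mean as a bar. Ccnb1, Cdc20, Anln and Cenpa are higher in D7 shUbc9 than in D7 shCtrl with no overlap, Incenp and Plk1 are lower in D4 shUbc9 than in D4 shCtrl, and Mad2l1 is higher in ES siUbc9 than in ES siCtrl.

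In fibroblasts without reprogramming factors the shifts were small and mostly downward. Of the 40 genes, 11 fell and 0 rose in MEF shUbc9 against MEF shCtrl (edgeR), where 2.21% of 16287 genes were called lower and 3.83% higher, and 39 of the 40 log2 fold changes were negative, with a median of -0.24 against -0.00 over all genes. Both depleted libraries lay below all 3 control libraries for 35 genes and above them for 1, against 15.9% and 20.9% of all genes. The count changed with the control library left out, to 1 without MEF shCtrl replicate 3 and 18 without MEF shCtrl replicate 1. Without MEF shUbc9 replicate 3 it was 0 and without MEF shUbc9 replicate 1 it was 1, but each of these fits leaves 1 depleted library, which is assumed to vary like the controls, so they say little about stability. With the spread over all 28 libraries the count was 0, and with DESeq2, or with library sizes alone, it was 19. The share of calls over all genes that were higher was 63.4%, and 52.1% with library sizes alone. The leave-one-out medians stayed between -0.29 and -0.21.

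Cenpa had the largest fall in MEF, at 18.0 and 17.3 CPM in shUbc9, against 22.8, 23.7 and 23.5 CPM in shCtrl, with close replicates and no overlap (-0.41 ± 0.07, adjusted p = 0.00804). Kif11 was at 48.7 and 43.5 CPM in shUbc9, against 52.3, 62.6 and 62.7 CPM in shCtrl, and one control library lay near the depleted ones (-0.37 ± 0.08, adjusted p = 0.0333). The other calls were Mki67 (-0.37), Ttk (-0.34), Aurkb (-0.34), Ube2c (-0.32), Birc5 (-0.31), Racgap1 (-0.30), Prc1 (-0.28), Kif23 (-0.25) and Cdk1 (-0.24), so that each role had at least 1 gene called lower. Pttg1 was the one gene with a positive value, at 27.97 and 29.51 CPM in shUbc9, against 25.4, 27.0 and 24.8 CPM in shCtrl, not called (0.15, adjusted p = 0.22). The values closest to 0 among the negative ones were those of Tpx2 (-0.12), Aurka (-0.13), Kif2c (-0.15) and Cdc20 (-0.17), none called. Macrophage markers summed to 386 to 389 CPM in MEF shUbc9, against 201 to 277 CPM in MEF shCtrl, with 10 of 15 called higher, among them Itgam (1.42), and Marco, also called higher, at 0 in the MEF shCtrl libraries. Fibroblast markers summed to 29043 to 30207 CPM, against 27176 to 33339 CPM, with 4 of 13 higher, among them Twist2 (0.54) and Pdgfra (0.43). Of the endothelial, epithelial and pluripotent markers 4, 5 and 2 were tested in MEF and none was called. The part of these shifts in the mitotic genes was not tested.

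The response at D7 differed from that in MEF in 36 of the 40 genes, all higher at D7 (edgeR; 17.8% of 18074 genes were called higher and 20.5% lower). The median difference was 0.94, against -0.00 over all genes, and the largest were those of Ccnb1 (1.53), Cenpa (1.37) and Anln (1.28). Cdc25b (0.31), Foxm1 (0.49), Incenp (0.18) and Pttg1 (0.09) were not called. With the spread over all 28 libraries 20 genes were higher, and the share of all calls that were higher was 46.5%, against 71.0% with library sizes alone.

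In ES cells few of the genes were called. Of the 40 genes, 4 rose and 3 fell in ES siUbc9 against ES siCtrl (edgeR), where 21.3% of 17859 genes were called higher and 17.8% lower, and the median log2 fold change was -0.02, against 0.01 over all genes. Depleted libraries lay below control libraries for 18 genes and above for 4, against 33.3% and 19.3% of all genes.

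Mad2l1 stood out in ES cells. It was at 304, 289 and 285 CPM in siUbc9, against 164, 141 and 158 CPM in siCtrl, with every depleted library far above the control libraries (1.01 ± 0.06, 2.02-fold, adjusted p = 4e-06). Pttg1 was at 24.9, 25.3 and 24.7 CPM in siUbc9, against 21.0, 18.4 and 19.7 CPM in siCtrl, without overlap (0.43 ± 0.06, adjusted p = 0.000304). Cenpa and Ect2 rose by 0.24 each.

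Kif23, the motor of centralspindlin, was at 108, 110 and 111 CPM in ES siUbc9, against 151, 150 and 156 CPM in ES siCtrl, with tight replicates (-0.39 ± 0.04, adjusted p = 0.000125). Top2a was at 1153, 1068 and 1062 CPM, against 1508, 1326 and 1456 CPM, also without overlap (-0.29 ± 0.08, adjusted p = 0.0149), and Ccnb2 fell by 0.16. Without ES siCtrl replicate 3, ES siUbc9 replicate 2 or ES siUbc9 replicate 3 there was 1 gene lower in place of 3, without ES siCtrl replicate 2 there were 5 and without ES siUbc9 replicate 1 there were 6. With the spread over all 28 libraries 1 gene was higher and 0 were lower. Of the roles with no call in ES cells, the smallest p was that of Birc5 in the passenger complex (0.09, adjusted p = 0.24) and of Hmmr in the spindle (0.14, adjusted p = 0.11). Foxm1 (-0.16) and Prc1 (-0.14) were among the lowest values and were not called. Pluripotent markers summed to 2845 to 3120 CPM in ES siUbc9, against 3582 to 3844 CPM in ES siCtrl, with 7 of 12 called lower and 1 higher. Epithelial markers summed to 675 to 716 CPM, against 779 to 785 CPM (5 of 7 lower, 1 higher), fibroblast markers to 445 to 535 CPM, against 568 to 842 CPM (11 of 13 tested, 3 lower), macrophage markers to 51.7 to 55.1 CPM, against 77.4 to 78.2 CPM (5 of 15 tested, 2 higher and 2 lower), and endothelial markers to 109 to 119 CPM, against 97.6 to 106 CPM (6 of 7 tested, 2 higher). Of the macrophage markers 3 were at 0 in every ES siUbc9 library and 4 in every ES siCtrl library, and of the endothelial markers 1 in every ES siCtrl library. The part of these shifts in the mitotic genes was not tested.

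The ES response was lower than the D7 response for 34 of the 40 genes and higher for 0 (edgeR; 24.3% of 19395 genes were lower and 20.1% were higher), with a median difference of -0.78 against -0.05 over all genes. Ccnb1 had the largest difference (-1.46), followed by Anln (-1.21), Cdc20 (-1.17) and Kif2c (-1.14). The genes not called were Foxm1 (-0.40), Mki67 (-0.36), Cdc25b (-0.28), Incenp (-0.09), Pttg1 (0.13) and Mad2l1 (0.26, adjusted p = 0.0559). With the spread over all 28 libraries 21 genes were lower, and the share of all calls that were higher was 45.2%, against 32.4% with library sizes alone. The method of depletion, hairpin or small interfering RNA, differed between the states and cannot be told apart from the state.

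In iPS cells no gene of the set and 0 of all 17294 genes (0%) were called by edgeR in shUbc9 against shCtrl, with 0 of the 40 genes and 246 of all genes (1.42%) at an unadjusted p under 0.05. DESeq2 called 0 of the 40 and 7 of all genes. Depleted libraries lay above control libraries for 0 of the 40 genes and below for 0, against 6.67% and 5.83% of all genes. The highest values were those of Kif4 (0.59), Plk1 (0.37), Cdc20 (0.33), Cdc25b (0.27) and Aurka (0.22), and the lowest those of Kif11 (-0.57), Ect2 (-0.41), Top2a (-0.41), Nuf2 (-0.37) and Foxm1 (-0.36), with Ttk (-0.25) and Aurkb (0.12) having the smallest p of their roles, all at an adjusted p = 1.00. Kif11 was at 272, 29.5 and 291 CPM in shUbc9, against 256 and 328 CPM in shCtrl, so that replicate 2 alone lay outside the other values, and Plk1 was at 131, 263 and 151 CPM, against 124 and 153 CPM, with replicate 2 high. Kif4 was at 202, 42.0 and 248 CPM in shUbc9, against 101 and 115 CPM in shCtrl, so that its other shUbc9 libraries lay above both control libraries while replicate 2 lay below them. Without replicate 2 there were 0 calls among the 40 genes and their median was 0.04, in place of -0.10.

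The control groups place these values on the path from fibroblast to pluripotent cell. After 4 days of OKSM 39 of the 40 genes rose in D4 shCtrl against MEF shCtrl and 1 fell (edgeR; 33.3% of 16715 genes were higher and 33.5% were lower), with a median log2 fold change of 0.68. Aurkb (1.19), Nusap1 (1.18), Incenp (1.05) and Mki67 (1.04) rose most, and Pttg1 fell by 0.39. Of all calls 49.8% were higher, and 62.2% with library sizes alone. This comparison and the D4 depletion comparison share the D4 shCtrl libraries.

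In iPS shCtrl against D7 shCtrl 39 genes were higher and 1, Cdc25b, was lower (36.2% of 18056 genes were higher and 37.6% were lower), with a median of 2.20. In ES siCtrl against MEF shCtrl 38 were higher and 2, Cdc25b and Pttg1, were lower (47.7% of 18149 genes higher and 42.8% lower), with a median of 2.24 where that of all genes was 0.13. Between the pluripotent controls, 6 genes were higher in iPS shCtrl than in ES siCtrl and 15 lower (27.3% and 26% of 18108 genes). Pttg1 was the highest in iPS cells, at 72.1 and 56.7 CPM in iPS shCtrl, against 21.0, 18.4 and 19.7 CPM in ES siCtrl (1.64), and Ccnb2 was higher by 0.78. Cenpe fell by 1.35, Mki67 by 0.94, Cenpf by 0.90 and Mad2l1 by 0.89. Without ES siCtrl replicate 1, and likewise without ES siCtrl replicate 3, 3 genes were higher in place of 6. The ES controls received a small interfering RNA, whereas the MEF and iPS controls carried a hairpin. In the comparisons with ES siCtrl this difference cannot be told apart from the cell state.

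Other genes of division were counted from lists outside the set. The shares of all genes called higher and lower, against which these counts stand, were 27.3% and 26.3% at D7, 3.83% and 2.21% in MEF, 27.2% and 26.1% at D4, and 21.3% and 17.8% in ES cells. Of 59 further mitotic genes 46 rose and 0 fell at D7 (median 0.56), among them Cep55, of the final cut between daughter cells (0.95), and the centrosome kinase gene Nek2 (0.91), while in MEF 0 rose and 8 fell (median -0.24), with Kif15 at -0.39 and Spc24 at -0.43. At D4 11 rose and 12 fell, and in ES cells 10 rose and 12 fell, shares below those of all genes at D4 and near them in ES cells. Of 36 genes of DNA replication and S phase, 22 rose and 0 fell at D7 (median 0.40), with Mcm10, a replication factor, at 0.86 and Uhrf1, which carries DNA methylation through replication, at 0.63. In MEF 0 rose and 4 fell (median -0.13), with the replication licensing genes Cdt1 at -0.47 and Mcm5 at -0.29. At D4 11 rose and 3 fell, and in ES cells 4 rose and 12 fell.

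Subunits of the machines that the mitotic genes work with are listed for their values. Of 15 APC/C genes at D7, fewer in each direction than the 27.3% and 26.3% of all genes were called. There 2 rose, the inhibitor Fbxo5 (0.61) and the E2 enzyme Ube2s (0.33), and 3 fell, among them the subunits Anapc2 (-0.58) and Anapc1 (-0.52). In MEF Anapc2 rose by 0.19 and Ube2s fell by 0.24, and the other 13 were not called. At D4 2 rose and 6 fell, and in ES cells 2 rose and 1 fell. Of 17 condensin and cohesin genes at D7, 8 rose and 3 fell, with the condensin subunit Ncapg at 0.79, the cohesin release factor Wapl at 0.30, and the cohesin regulators Pds5b at -0.43 and Nipbl at -0.31. None was called in MEF, 5 rose and 3 fell at D4, and 6 rose and 0 fell in ES cells.

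Among 22 transcription regulators of the cell cycle at D7, 8 rose and 5 fell, which is near the 27.3% and 26.3% of all genes and is no result about the list. Mybl2, the B-Myb activator of mitotic genes, was at 32.5, 40.7 and 33.8 CPM in D7 shUbc9, against 17.0, 16.1 and 15.6 CPM in D7 shCtrl, with no overlap (1.14 ± 0.10, adjusted p = 3.89e-05). The retinoblastoma gene Rb1 rose by 0.68. Its relative Rbl2, a repressive subunit of the DREAM complex, fell by 0.70, and Tfdp2, a partner of E2F factors, fell by 0.44. None was called in MEF, 6 rose and 7 fell at D4, and 4 rose and 3 fell in ES cells.

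Of 18 CDK inhibitors and G2 checkpoint genes at D7, 5 rose and 6 fell, also near the shares of all genes. The CDK inhibitor genes Cdkn1c and Cdkn1b fell by 1.51 and 0.72, and Sfn, which encodes the checkpoint protein 14-3-3 sigma and is high in epithelia, and the p53 target Ccng1 rose by 2.08 and 1.16. In MEF Ccng1 (0.46) and Cdkn1c (0.44) rose and Sfn fell (-0.52). At D4 5 rose and 6 fell, and in ES cells 5 rose and 3 fell. Of 17 genes of the SUMO pathway itself 5 rose and 4 fell at D7, with Sumo3 at 0.53, Uba2, a subunit of the SUMO E1 enzyme, at 0.52 and the ligase gene Pias3 at -0.56. In MEF Sumo3 rose by 0.27, at D4 6 rose and 3 fell, and in ES cells 2 rose and 5 fell. In iPS cells no gene of any of these lists was called.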

How the data were processed

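Total RNA depleted of ribosomal RNA was sequenced in a stranded protocol, per the labels' protocols. The authors deposited raw read counts per gene. Per the submitters' processing notes, the tools were STAR 2.5.0a, featureCounts, DESeq2 and MACS2 and the build was mm9. Neither strand setting nor annotation is given in the sources used here, so reads of overlapping genes may be shared. Symbols came from a RefSeq table by Entrez ID, which matched 24191 of 26301 genes; 799 repeat families and 32 peak lists were not used. Libraries held 11.4 M to 58.8 M gene counts.

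Genes were filtered with filterByExpr (minimum count 10), scaled by TMM and tested with edgeR 4.0.16 (quasi-likelihood, R 4.3.3) over the groups of each of 14 comparisons; p-values were Benjamini-Hochberg adjusted over all genes and called under 0.05. SE is the log2 fold change divided by the square root of F. Alternatives were other scalings, no filter, all libraries in one fit, a replicate block, DESeq2 1.42.0 and leaving out each library. The procedure was tested on simulated data. The 40 genes, the other gene lists and the markers were chosen with earlier results of these data known. All 40 genes may be named; values are given for the smallest p per role and direction, the 5 largest and 5 smallest changes per depletion comparison, and the 2 smallest p per direction of each other list at D7 and in MEF. The printed promoters were chosen after the values were seen. The level of 1 gene is not reported here.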

Additional observations from a re-analysis of the deposited data

Results flagged for a closer look

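The response to Ubc9 depletion differed between cell states by a test of the difference itself in 3 pairs of states. It was higher at D7 than at D4 for 35 of the 40 genes, against 6.04% of all genes tested. The difference of log2 fold changes was 1.23 for Cenpa and 0.76 for Anln. The response was higher at D7 than in MEF for 36 genes, against 17.8% of all genes, with 1.28 for Anln and 1.37 for Cenpa. The response was lower in ES cells than at D7 for 34 genes, against 24.3% of all genes, with -1.21 for Anln and -1.46 for Ccnb1. All 3 differences use the D7 shUbc9 and D7 shCtrl libraries, so they are not independent of each other.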

How the results depend on the processing

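Counts of the 40 genes called were recomputed under each alternative. The shares of all genes called under the same alternatives are not given beside them. A change in these counts may therefore be one that genes in general share. With the spread estimated over all 28 libraries, 0 genes were lower in MEF, 3 higher and 1 lower at D4, 1 higher and 0 lower in ES cells, 0 lower in D4 against MEF controls, 25 lower in D7 against D4 controls, 4 lower in D7 against D4 depleted cells, 1 lower in ES against MEF controls, 4 lower in iPS against ES controls, 12 higher for the D7 minus D4 response, 20 higher for D7 minus MEF and 21 lower for ES minus D7. Leaving the iPS libraries out of that fit, an alternative chosen after seeing the data, gave 2 higher and 8 lower in ES cells. Among the results for single genes, 96 lost their call with all 28 libraries and 115 kept their sign and call status. Without the iPS libraries, in the comparisons that held no iPS group, 5 lost their call and 186 kept their sign and call status. The MEF count of 11 lower was 19 with library sizes alone, 17 without the filter, 18 with the replicate block and 19 with DESeq2. Library sizes alone put the all-gene median (log2) at 0.21 at D7, 0.22 in iPS against D7 controls, 0.27 in ES against MEF controls, 0.12 in iPS against ES controls, 0.22 for D7 minus MEF and -0.20 for ES minus D7. They gave 4 lower at D4 and 0 lower in iPS against D7 controls, and 1 gene was higher for ES minus D7 with RLE factors or DESeq2. Leaving out 1 library at a time gave 0 to 18 lower in MEF, 6 to 12 higher and 6 to 7 lower at D4, 35 to 37 higher at D7, 3 to 5 higher and 1 to 6 lower in ES cells, 4 to 13 lower in D7 against D4 depleted cells, 3 to 8 higher and 12 to 22 lower in iPS against ES controls, 32 to 36 higher for D7 minus D4, 36 to 37 higher for D7 minus MEF, and 0 to 1 higher and 34 to 36 lower for ES minus D7. The cause of these shifts was not tested.

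Replicate numbers were not used as pairs in the main fits, since no comparison with at least 3 pairs had every correlation of same-numbered libraries over 0.1. With so few libraries per group this rule cannot exclude pairing. In D4 against MEF controls the same-numbered correlations were 0.08, 0.25 and 0.09, against at most 0.03, -0.12 and 0.05 with another number. For depletion at D7 the same-numbered correlations were -0.06, -0.20 and -0.06. The replicate block gave 0 lower in iPS against D7 controls and 2 higher in iPS against ES controls. Under the block the iPS values of Ttk (0.22), Aurkb (-0.041), Ect2 (0.0055), Top2a (0.0086) and Cdc25b (-0.12) changed sign, none of them called. Leaving out 1 iPS library gave -0.65 to 0.20 for Ttk, -0.045 to 0.26 for Aurkb, -0.12 to 0.48 for Cdc25b and -0.0017 to 0.54 for Plk1, with the sign changed only without iPS shUbc9 replicate 2. Other uncalled values that changed sign were Incenp at D7, at 0.19 with library sizes alone and -0.093 to 0.025 with 1 library left out, and Birc5 in ES cells, at -0.0039 with all 28 libraries and -0.0058 without the iPS libraries. The 2 libraries of MEF shUbc9 and of iPS shCtrl limit the precision there.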
